A study of Mus musculus with 13 samples.

Results

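Cytokines are the secreted proteins through which helper T cells instruct other cells, and 10 of their genes are described here: Il10, Ifng, Tnf, Il21, Il2, Il4, Il13, Il24, Lif and Ebi3. They were picked by gene symbol in the annotation of the array, out of 22180 genes with a probe set of a single symbol. Where a gene had several such probe sets, the one with the highest mean over all 13 arrays stood for it, which applied to Ebi3 alone. A gene was tested if at least 4 arrays exceeded a floor of 4.31, which is the median over every deposited value, and all 10 were among the 12710 tested, each exceeding it on 12 or 13 arrays.

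RNA came from donor CD4+ T cells in a mouse model of graft-versus-host disease, in which transferred T cells respond to the antigens of the host. Splenocytes of C57BL/6 mice carrying the division dye CFSE were given to B6D2F1 hosts, and after 72 h the CD4+ cells of spleen and lymph node with 2 or more divisions were isolated with pan-CD4 beads and flow sorting. Donors and hosts were bought at 10 to 12 weeks of age. Hosts received vehicle by intraperitoneal injection on each day from day 0 to day 2 (4 arrays), TCDD (dioxin) at 15 µg/kg on day 0 alone (4 arrays), or Cl-BBQ at 10 mg/kg on each day from day 0 to day 2 (5 arrays). All groups shared the same transfer and no group lacked the alloresponse. The compounds were given to the whole animal, and the sorted population is bulk, so fewer cells making a transcript and less of it per cell cannot be told apart. TCDD and Cl-BBQ both bind the aryl hydrocarbon receptor (AhR), but dose and schedule differed (vehicle followed the Cl-BBQ days), so a difference between their groups is one between regimens.

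AhR is a transcription factor kept in the cytoplasm until a ligand binds it. With its partner ARNT it then binds DNA at the short core motif GCGTG and induces enzymes such as the cytochrome P450 Cyp1a1. In T cells, ligands of AhR have been studied for their action on suppressive cells, among them type 1 regulatory cells, which lack Foxp3 and act through interleukin 10. The genes below fall into 3 roles: suppressive products (Il10 and Ebi3), cytokines of the helper types (Ifng and Tnf for Th1, Il4 and Il13 for Th2, Il21 for follicular helper cells, Il2 as the growth factor of activated cells), and the less studied Il24 and Lif.

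Values were log2 expression after RMA, on which a difference of 1 is a 2-fold change, with a precision set by how few arrays there were. All 5 AhR targets looked at (Cyp1a1, Cyp1b1, Ahrr, Tiparp and Nqo1) rose against vehicle with each ligand. Cyp1b1 and Ahrr were below the floor on every vehicle array, so they were tested only through the groups where they were high. The vehicle mean of Cyp1a1, 3.90, was below the floor too. The mean level of the 5 targets per array lay between 4.21 and 4.66 with vehicle, 5.73 and 6.28 with TCDD, and 6.74 and 7.27 with Cl-BBQ. Cd4 and 7 other T cell markers had array means of 10.99 to 11.24 with vehicle, 11.28 to 11.30 with TCDD and 11.25 to 11.33 with Cl-BBQ. The 2 CD8 T cell markers had array means of 5.28 to 5.55 with vehicle, 5.34 to 6.01 with TCDD and 5.66 to 6.12 with Cl-BBQ. Of these, Cd8a was at 0.58 ± 0.26 and 0.60 ± 0.25 against vehicle, and Cd8b1 at -0.27 ± 0.21 and 0.13 ± 0.20, none called. None of 7 basophil and mast cell markers, cells that also make Il4 and Il13, passed the floor. Of 7 B cell markers 5 passed it, with array means of 4.25 to 4.42, 3.93 to 4.10 and 3.92 to 4.20 in the vehicle, TCDD and Cl-BBQ groups, and of 9 monocyte and macrophage markers 4 passed, at 4.39 to 4.55, 4.03 to 4.33 and 3.97 to 4.24. Of the B cell markers, Cd22 was called lower, at -2.14 ± 0.16 with TCDD and -2.07 ± 0.15 with Cl-BBQ. It exceeded the floor on the 4 vehicle arrays alone, so it was tested only through the group where it was high. The others tested were not called: Cd79a, Cd79b, Pax5 and Blk were at 0.004, 0.10, -0.02 and 0.18 with TCDD. With Cl-BBQ they were at -0.20, 0.64, -0.02 and 0.17. Of the monocyte and macrophage markers, Cybb was called lower, at -2.15 ± 0.33 and -2.48 ± 0.31. Cd68 was called higher with both ligands, a call lost in 5 of 13 single-array omissions with TCDD and 7 of 13 with Cl-BBQ (limma, adjusted p up to 0.080 and 0.13). The B cell marker Ms4a1 and the macrophage marker Lyz2 were below the floor. The list of gamma delta T cell and innate lymphoid markers went from array means of 4.70 to 4.96 with vehicle to 5.70 to 5.95 with TCDD and 5.59 to 6.18 with Cl-BBQ. Of its 3 genes, Il7r, which CD4+ T cells express too, rose by 1.36 ± 0.18 and 2.53 ± 0.17, Kit rose by 1.19 ± 0.15 and 0.81 ± 0.14, and Zbtb16 was at 0.20 and -0.04, not called. Tyrobp, of the natural killer list, was at 0.40 ± 0.14 with TCDD, not called, and was called with Cl-BBQ at 0.49 ± 0.13, a call lost in 5 of 13 omissions (limma, adjusted p up to 0.076). Klrb1c of the same list pointed the other way, at -0.33 ± 0.17 and -0.50 ± 0.16, not called (limma, adjusted p = 0.36 and 0.070). Ncr1 was at 0.33 and 0.19, not called. Array means of this list overlapped, at 4.55 to 4.68 with vehicle, 4.48 to 4.83 with TCDD and 4.46 to 4.91 with Cl-BBQ. The part of these shifts in the cytokine results was not tested.

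Over the 10 cytokine genes, Il10 rose with both ligands, Il21 rose with TCDD, and Il4 and Lif fell with Cl-BBQ. With TCDD 2 of 10 were called (limma, adjusted p under 0.05), both higher, where 6.71% of all tested genes were called, 3.21% higher and 3.50% lower. With Cl-BBQ 3 of 10 were called, 1 higher and 2 lower, where 11.3% of all genes were called, 5.31% higher and 6.03% lower. Between the ligands none of the 10 was called by limma, and only 3 of 12710 genes were called (0.0236%), all higher with Cl-BBQ (0.0236% higher and 0% lower). The unadjusted limma p was under 0.05 for 3 of the 10, Il21, Il4 and Lif, which ranked 15th, 26th and 200th of 12710. The share of all tested genes under that p was not computed. The median log2 difference of the 10 was 0.07 with TCDD, -0.04 with Cl-BBQ and 0.02 between the ligands, beside medians of -0.0009, -0.0064 and -0.0044 over all tested genes. The genes were proposed with results of these arrays known, so their counts describe them and carry no evidence about cytokine genes as a class.

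**Figure D1:**
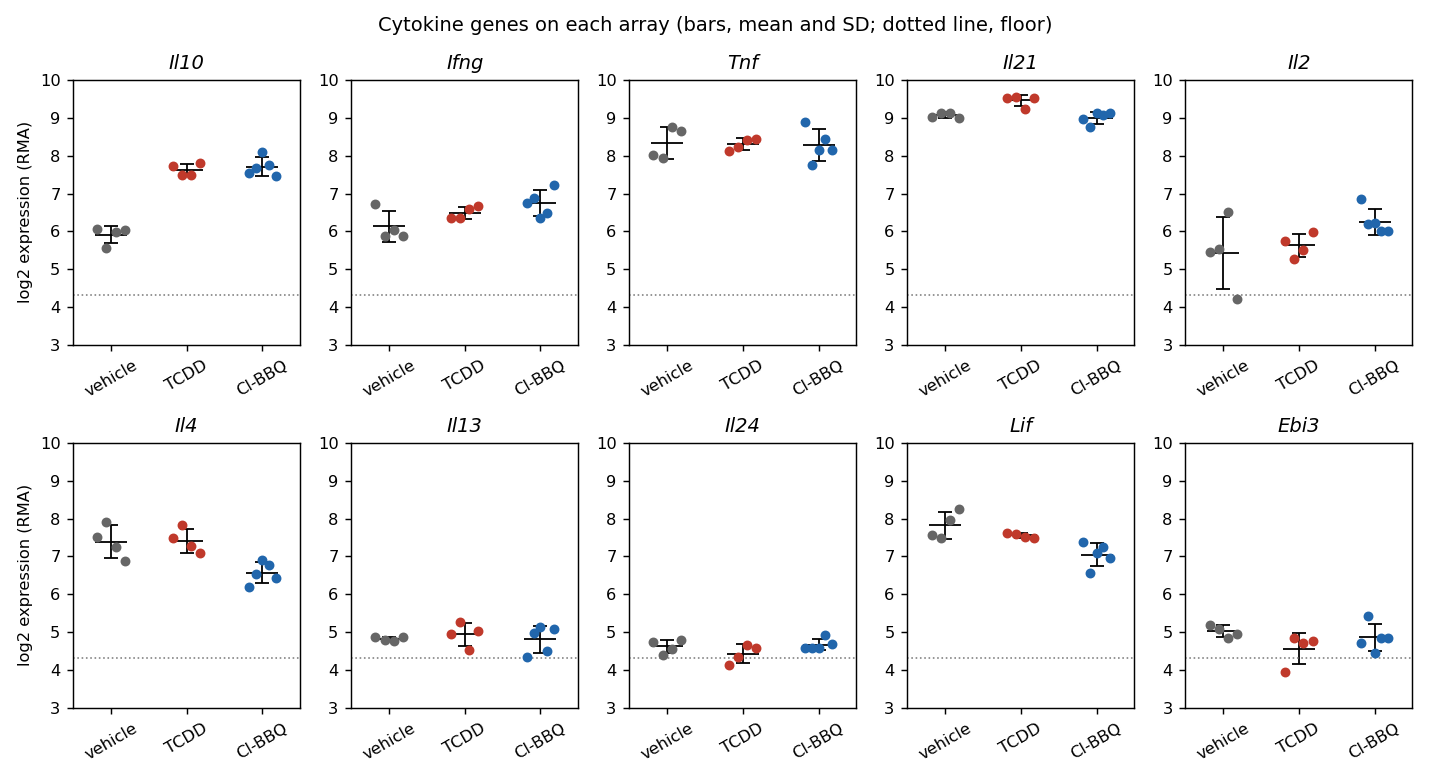
Each panel plots the log2 expression of 1 cytokine gene on each of the 13 arrays, by group (4 vehicle, 4 TCDD and 5 Cl-BBQ), with the group mean and SD as bars and the floor of 4.31 dotted. All treated arrays of Il10 lie between 7.46 and 8.10, above all vehicle arrays, while the Tnf panel shows 3 overlapping groups.

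Il10 encodes the suppressive cytokine interleukin 10, which restrains antigen-presenting cells and inflammatory T cells. The 4 vehicle arrays were at 6.05, 5.57, 5.97 and 6.03. With TCDD the 4 arrays were at 7.73, 7.48, 7.49 and 7.80, and with Cl-BBQ the 5 arrays were at 7.53, 7.67, 8.10, 7.76 and 7.46. No treated array came near the vehicle range, while 3 of the 5 Cl-BBQ arrays lay within the TCDD range, 1 above it and 1 just below. The log2 difference from vehicle was 1.72 ± 0.15 (SE) with TCDD, a 3.29-fold rise (limma, adjusted p = 4.9e-06), and 1.80 ± 0.14 with Cl-BBQ, a 3.48-fold rise (limma, adjusted p = 7.9e-07). By unadjusted p the gene ranked 32nd and 55th of 12710 in these contrasts. Between the ligands it differed by 0.08, with a 95% interval of -0.22 to 0.38, so a difference above 0.38 lay outside the interval in either direction. Exact two-sided permutation tests gave 0.0286 with TCDD and 0.0159 with Cl-BBQ, each the smallest p those group sizes allow.

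Ebi3 encodes a subunit that pairs with the product of Il27 to form interleukin 27 and with that of Il12a to form interleukin 35, a product of regulatory cells. Its 4 vehicle arrays were at 5.20, 5.08, 4.84 and 4.96, and the TCDD arrays at 3.94, 4.83, 4.73 and 4.77. All TCDD arrays thus lay below all vehicle arrays, by a narrow margin for 3 of them, with a log2 difference of -0.46 ± 0.21 (limma, adjusted p = 0.27). Without TCDD replicate 1, the lowest array, the difference was -0.25. The Cl-BBQ arrays were at 4.72, 5.43, 4.45, 4.86 and 4.85, overlapping both other groups, and differed from vehicle by -0.16 ± 0.20 (limma, adjusted p = 0.71). The second probe set of Ebi3 gave -0.40 ± 0.14 with TCDD (limma, adjusted p = 0.14) and -0.40 ± 0.14 with Cl-BBQ (limma, adjusted p = 0.079), so the probe sets share the sign and differ in size for Cl-BBQ. That second probe set had the same value, 4.8263, on TCDD replicates 1 and 4 and Cl-BBQ replicates 1, 2 and 4. How these ties affect its SE was not tested. Neither partner gene was called: Il27 differed by 0.13 with TCDD and -0.01 with Cl-BBQ, and Il12a was below the floor with means of 3.92, 3.84 and 3.87 in the vehicle, TCDD and Cl-BBQ groups.

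Il21 encodes a cytokine with which helper cells drive B cell responses and sustain effector T cells. The vehicle arrays were tightly placed at 9.03, 9.13, 9.13 and 8.99 (SD 0.07, n = 4). The TCDD arrays were at 9.52, 9.56, 9.24 and 9.53, all above vehicle. The Cl-BBQ arrays were at 8.96, 8.75, 9.13, 9.07 and 9.12, within the vehicle range or below it, replicate 2 being the furthest below at 8.75. The rise with TCDD was 0.39 ± 0.11 (limma, adjusted p = 0.038), or 1.31-fold. It was no longer called without any one of vehicle replicates 1 to 4 or TCDD replicates 1, 2 and 4, with adjusted p from 0.058 to 0.11 (limma), and the call therefore rests close to the threshold. With Cl-BBQ the difference was -0.06, with a 95% interval of -0.28 to 0.15. All Cl-BBQ arrays lay below all TCDD arrays, with a direct difference of -0.46 ± 0.10 (95% interval -0.67 to -0.24). That contrast ranked 15th of 12710 by unadjusted p (4.6e-04) and did not pass after adjustment (limma, adjusted p = 0.39).

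Il2 encodes interleukin 2, the autocrine growth factor of activated T cells and the survival factor of regulatory ones, and its gene is adjacent to Il21 on chromosome 3. Its vehicle arrays were widely spread, at 5.44, 5.52, 6.52 and 4.21, the last below the floor (SD 0.94, n = 4). The TCDD arrays were at 5.73, 5.28, 5.51 and 6.00 and the Cl-BBQ arrays at 6.85, 6.18, 6.23, 6.02 and 6.00. Every Cl-BBQ array was above every TCDD array, but only just, the nearest being at 6.0047 with Cl-BBQ and 5.9955 with TCDD. The vehicle group overlapped both, reaching below all treated arrays and up to all but the highest Cl-BBQ array. The difference from vehicle was 0.20 ± 0.35 with TCDD (limma, adjusted p = 0.84) and 0.83 ± 0.34 with Cl-BBQ (limma, adjusted p = 0.15). The second value moved to 0.43 without vehicle replicate 4 and to 1.20 without vehicle replicate 3, where it was called (limma, adjusted p = 0.016). Between the ligands it was 0.63 ± 0.34 (limma, adjusted p = 0.83).

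Il4 encodes interleukin 4, the cytokine that defines Th2 cells and drives class switching in B cells. The vehicle arrays were at 7.52, 7.92, 7.24 and 6.88 and the TCDD arrays at 7.49, 7.82, 7.26 and 7.10, which cover the same range. The Cl-BBQ arrays were at 6.20, 6.55, 6.90, 6.76 and 6.43, all below every TCDD array, and 1 of them reached the lowest vehicle array. Against vehicle Il4 fell by 0.82 on the log2 scale with Cl-BBQ (SE 0.20, limma, adjusted p = 0.015), to 0.566 times the vehicle level. This call was lost without vehicle replicate 2 (limma, adjusted p = 0.056). With TCDD the difference was 0.03, with a 95% interval of -0.43 to 0.49. The direct difference of Cl-BBQ from TCDD was -0.85 ± 0.20 (95% interval -1.29 to -0.42), the 9th lowest of 12710, and did not pass after adjustment (limma, unadjusted p = 8.9e-04, adjusted p = 0.43).

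Il13, the neighbour of Il4 on chromosome 11 and its partner in Th2 responses, was close to the floor in every group. The vehicle arrays were at 4.88, 4.79, 4.78 and 4.86, the TCDD arrays at 4.95, 5.26, 4.54 and 5.04, and the Cl-BBQ arrays at 4.36, 4.98, 5.15, 4.51 and 5.07. Both treated groups straddled the narrow vehicle range. The differences were 0.12 ± 0.18 with TCDD and -0.02 ± 0.17 with Cl-BBQ (limma, adjusted p = 0.81 and 0.97), and neither was called. Whether the Cl-BBQ differences of Il4 and Il13 differ from each other was not tested.

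Lif encodes leukemia inhibitory factor, a member of the interleukin 6 family that acts through Lifr and the shared chain Il6st. The vehicle arrays were at 7.57, 7.49, 7.96 and 8.26, the TCDD arrays at 7.62, 7.59, 7.52 and 7.49, and the Cl-BBQ arrays at 7.37, 6.57, 7.08, 7.24 and 6.97. All Cl-BBQ arrays were below all arrays of both other groups. TCDD arrays sat together at the lower end of the vehicle range (SD 0.06, n = 4). Against vehicle Lif fell by 0.77 with Cl-BBQ (SE 0.17, limma, adjusted p = 0.0068), to 0.585 times the vehicle level, and this was called without any single array too, with adjusted p up to 0.026. With TCDD the difference was -0.27 ± 0.18 (limma, adjusted p = 0.50), and between the ligands -0.51 ± 0.17 (limma, adjusted p = 0.59).

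**Figure D2:**
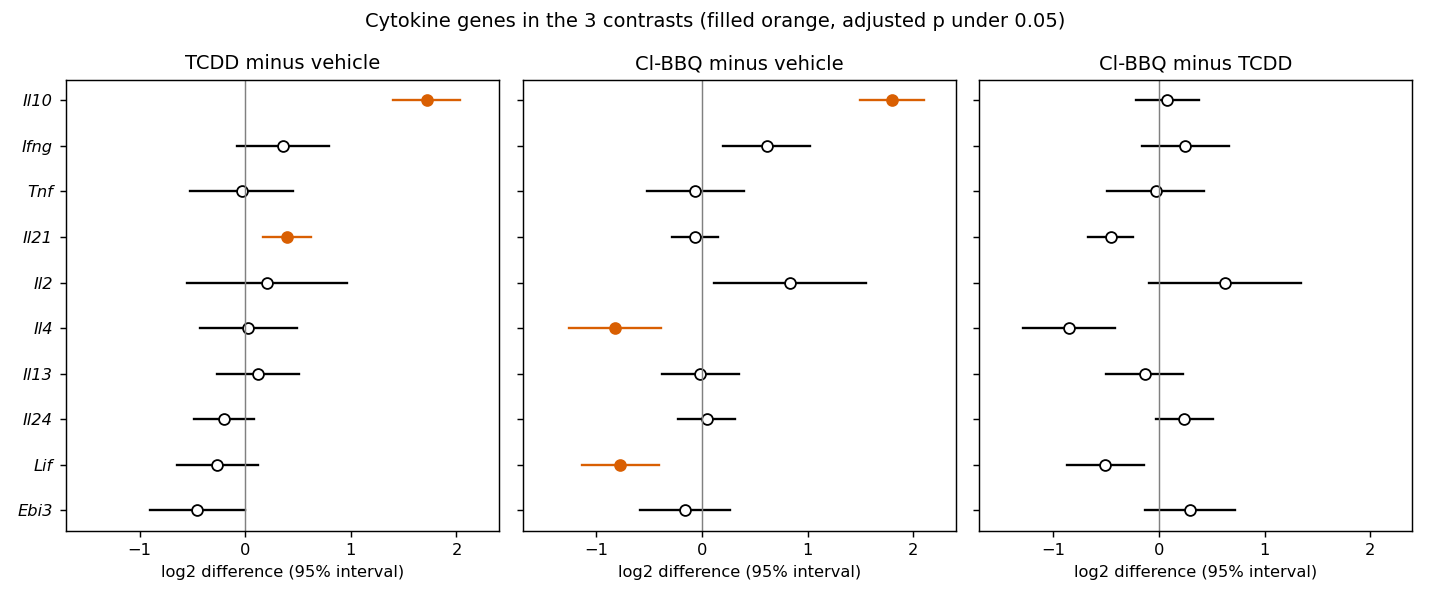
Points are log2 differences of the 10 cytokine genes in the 3 contrasts named above the panels, lines are 95% intervals from the limma fit, and filled orange points passed an adjusted p of 0.05. Il10 stands at 1.72 and 1.80 against vehicle and 0.08 between the ligands, while Il4 stands at 0.03 with TCDD and -0.82 with Cl-BBQ.

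Ifng encodes interferon gamma, the defining cytokine of Th1 cells. The vehicle arrays were at 6.74, 5.88, 6.04 and 5.87, with replicate 1 apart from the others, the TCDD arrays at 6.36, 6.35, 6.58 and 6.68, and the Cl-BBQ arrays at 6.76, 6.89, 6.36, 6.48 and 7.23. All treated arrays were above 3 of the 4 vehicle arrays. The difference from vehicle was 0.36 ± 0.20 with TCDD (limma, adjusted p = 0.40) and 0.61 ± 0.19 with Cl-BBQ (limma, adjusted p = 0.059), neither called. Without vehicle replicate 1 these became 0.56 (limma, adjusted p = 0.098) and 0.81 (limma, adjusted p = 0.0068). The Cl-BBQ value also passed without Cl-BBQ replicate 3 (limma, adjusted p = 0.035). It was furthest from passing without vehicle replicate 2 (limma, adjusted p = 0.16), so it lay near the threshold and depended on the arrays kept.

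Tnf, encoding tumour necrosis factor, the inflammatory cytokine long tied to tissue damage in graft-versus-host disease, did not pass in any contrast. Its vehicle arrays ran from 7.94 on replicate 2, with replicate 1 close to it, to 8.75 and 8.66 on replicates 3 and 4, its TCDD arrays at 8.12, 8.23, 8.42 and 8.44, and its Cl-BBQ arrays at 8.89, 7.75, 8.14, 8.43 and 8.16. The 2 lower and 2 higher vehicle arrays for Tnf were also the 2 lower and 2 higher for Lif. Differences from vehicle were -0.03 (95% interval -0.52 to 0.45) with TCDD and -0.07 (95% interval -0.52 to 0.39) with Cl-BBQ.

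Il24, a member of the interleukin 10 family that lies 3 genes from Il10 on chromosome 1, was not called in any contrast. Its vehicle arrays were at 4.74, 4.41, 4.57 and 4.79, its TCDD arrays at 4.12, 4.35, 4.67 and 4.58, and its Cl-BBQ arrays at 4.58, 4.59, 4.58, 4.91 and 4.69. These values lie at or near the floor and overlap, with differences of -0.20 ± 0.13 with TCDD and 0.04 ± 0.13 with Cl-BBQ (limma, adjusted p = 0.49 and 0.90).

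Group ranges separated for 3 of the 10 genes with TCDD against vehicle (Il10, Il21 and Ebi3), where they did for 13.6% of all tested genes, and for 2 with Cl-BBQ against vehicle (Il10 and Lif), where they did for 12.9%. Between the ligands they separated for 4 of 10, Il21, Il4 and Lif lower and Il2 higher with Cl-BBQ, where 2.11% of all tested genes did so. The Il2 margin was very narrow, its nearest arrays being at 6.0047 with Cl-BBQ and 5.9955 with TCDD. For each of these 4 the exact two-sided permutation test gave 0.0159 unadjusted, the smallest value that 4 against 5 arrays allow, and none passed limma's adjusted test. The contrasts share arrays, so an array that is high or low moves more than one of them.

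Promoters of Il21, Lif and Il4 are shown because these are the genes whose ligand groups separated and that were called against vehicle. The RefSeq-based promoter table for GRCm38.p6, with 250 bases before to 50 after each start, held 9 promoters of 8 of the 10 genes. It held none for Il10 and Il24, so the promoters of those genes were not searched. GCGTG, searched on both strands, occurred in 2 of these 9, those of Il21 and Lif, and in 32.4% of all 32851 promoters in the table. The match begins 142 bases before the start of Il21 and 204 before that of Lif, on the other strand in each, where it reads as its reverse complement. GGAAA, the core bound by the calcium-dependent factor NFAT that drives many cytokine genes, was also searched on both strands and can share at most 1 base with a GCGTG match. It occurred in all 9 promoters of these genes and in 61.3% of all promoters. It occurred 5 times in the Il4 promoter shown and 1 time in the other one listed for Il4, 4 times for Il13, 3 each for Il21 and Tnf, 2 each for Il2 and Ebi3 and 1 each for Lif and Ifng. At least 3 occurrences were found in 9.42% of all promoters. Capitals mark GCGTG or its reverse complement in Il21 and Lif, and GGAAA or its reverse complement in Il4. A match is a description of letters and not a site of binding.
Il21, chr3:37232587-37232886, minus strand: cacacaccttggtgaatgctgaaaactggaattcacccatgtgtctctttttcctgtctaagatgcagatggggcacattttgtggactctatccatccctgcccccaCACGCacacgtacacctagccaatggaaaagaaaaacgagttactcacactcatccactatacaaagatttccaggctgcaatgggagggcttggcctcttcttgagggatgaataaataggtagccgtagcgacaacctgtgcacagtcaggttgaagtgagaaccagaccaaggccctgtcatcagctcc
Lif, chr11:4257318-4257617, plus strand: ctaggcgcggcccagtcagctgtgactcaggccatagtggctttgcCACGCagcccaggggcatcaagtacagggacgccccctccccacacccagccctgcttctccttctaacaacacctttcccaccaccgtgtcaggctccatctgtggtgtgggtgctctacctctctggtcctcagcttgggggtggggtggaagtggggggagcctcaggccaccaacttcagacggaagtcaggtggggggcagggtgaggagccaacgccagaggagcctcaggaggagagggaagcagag
Il4, chr11:53618616-53618915, minus strand: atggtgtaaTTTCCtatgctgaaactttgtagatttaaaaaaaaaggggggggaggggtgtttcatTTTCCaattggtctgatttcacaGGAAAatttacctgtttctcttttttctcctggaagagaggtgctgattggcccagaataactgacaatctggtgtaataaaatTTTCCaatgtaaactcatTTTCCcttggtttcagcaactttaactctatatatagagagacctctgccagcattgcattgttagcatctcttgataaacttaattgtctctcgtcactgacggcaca

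Many chains of the receptors for these and related cytokines rose with both ligands. Of 20 receptor genes listed, 14 were tested, with median log2 differences of 0.40 with TCDD and 0.62 with Cl-BBQ. With TCDD 7 rose, where 3.21% of all tested genes did, and with Cl-BBQ 8, where 5.31% did, with none lower. The receptor genes were listed with earlier results known, so these counts describe them alone. Leaving out single arrays gave 5 to 8 and 7 to 9 called. Il12rb2, the chain shared by the receptors of interleukins 12 and 35, had the largest difference, 4.47 ± 0.17 with TCDD and 4.81 ± 0.16 with Cl-BBQ. Ifngr1, the ligand-binding chain for interferon gamma, rose by 0.88 ± 0.10 and 1.11 ± 0.09, Il4ra, the chain for interleukins 4 and 13, by 0.83 ± 0.11 and 1.19 ± 0.11, and Il27ra by 0.64 ± 0.11 and 0.83 ± 0.10. Thus with Cl-BBQ Il4 was lower and the chain that binds its product higher. Singled out after their values were seen, Il10ra, which binds interleukin 10, rose by 0.61 ± 0.13 and 0.79 ± 0.12 (limma, adjusted p = 0.0072 and 3.5e-04), and Il21r by 0.57 ± 0.14 and 0.80 ± 0.13, a call lost with TCDD without vehicle replicates 1 or 4 or TCDD replicates 1 or 4 (limma, adjusted p up to 0.066). Also named after their values were seen, Il2ra rose by 0.66 ± 0.18 with TCDD and 0.97 ± 0.17 with Cl-BBQ (limma, adjusted p = 0.038 and 0.0012). Its TCDD call was lost in 6 of 13 omissions (limma, adjusted p up to 0.11). Il10rb was at 0.22 ± 0.11 with TCDD, not called, and rose by 0.43 ± 0.11 with Cl-BBQ (limma, adjusted p = 0.015). That call was lost without vehicle replicates 1 or 2. Named in the same way, Ifngr2 was at -0.50 ± 0.205 and -0.35 ± 0.19, and Il2rb at -0.27 ± 0.11 and -0.23 ± 0.10, none called. Ifngr2 was called lower with TCDD without Cl-BBQ replicate 4 (limma, adjusted p = 0.027). Tnfrsf1a, Tnfrsf1b and Il6st were not called, and Lifr was below the floor.

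Of 27 tested transcription factors that act on these genes, 4 rose and 1 fell with TCDD, where 3.21% and 3.50% of all tested genes did. With Cl-BBQ 9 rose and 2 fell, where 5.31% and 6.03% did. The medians of the factors were 0.23 with TCDD and 0.20 with Cl-BBQ. They too were listed with earlier results known. Leaving out single arrays gave 4 to 6 and 9 to 11 called. Ikzf3, encoding Aiolos, a repressor of Il2, rose by 1.01 ± 0.10 with TCDD and 1.15 ± 0.10 with Cl-BBQ. Bhlhe40, a factor that represses Il10 in helper cells, rose by 1.22 ± 0.17 and 1.35 ± 0.16, and Prdm1, encoding Blimp-1, a factor that promotes Il10 and represses Il2, by 1.02 ± 0.22 and 1.13 ± 0.21. Runx3, which with T-bet promotes Ifng and silences Il4, rose by 0.62 ± 0.08 and 0.86 ± 0.08. Named after their values were seen, Tbx21, the gene of T-bet, and Gata3 were called with Cl-BBQ alone. Tbx21 was at 0.34 ± 0.15 with TCDD and 0.64 ± 0.15 with Cl-BBQ (limma, adjusted p = 0.26 and 0.0088). Gata3 was at 0.48 ± 0.14 and 0.47 ± 0.13 (limma, adjusted p = 0.058 and 0.033). The Gata3 call was lost in 7 of 13 omissions. Bcl6, the factor of follicular helper cells, fell by 0.73 with Cl-BBQ (SE 0.11, limma, adjusted p = 3.2e-04) and was at -0.38 ± 0.11 with TCDD (limma, adjusted p = 0.064). None of the receptor genes or these factors was called between the ligands by limma. At an unadjusted p under 0.05 there were 3 and 4, counts for which the share over all tested genes was not computed. The factor gene that fell with TCDD was Irf4, named after its value was seen, a factor induced by antigen receptor signals that promotes several helper cytokines. It was at -0.52 ± 0.14 with TCDD (limma, adjusted p = 0.038) and -0.54 ± 0.13 with Cl-BBQ (limma, adjusted p = 0.014). The TCDD call of Irf4 was lost without any one vehicle or TCDD array (limma, adjusted p up to 0.10). Maf, a direct activator of Il10, Il4 and Il21, was at 0.24 ± 0.09 and 0.13 ± 0.09, not called.

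**Figure D3:**
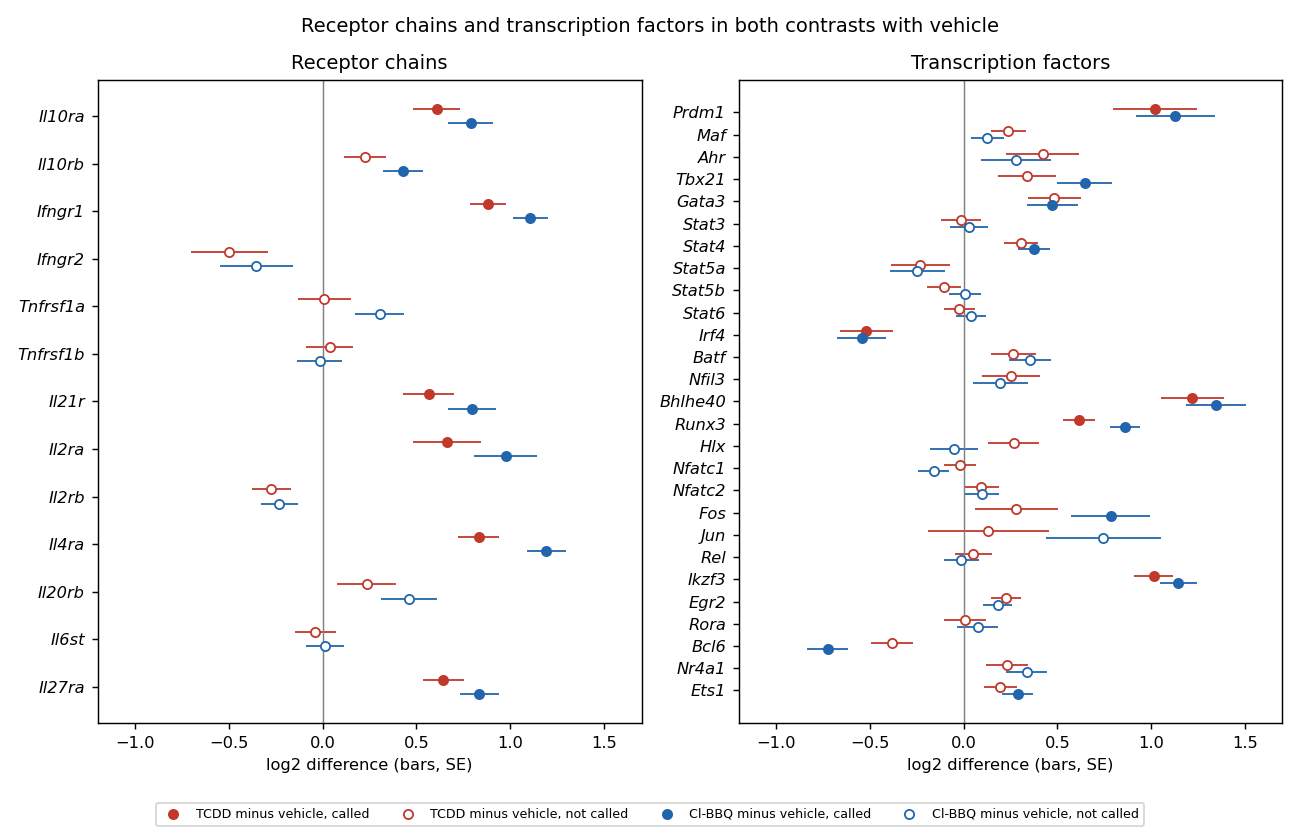
Points are log2 differences from vehicle with SE for tested receptor chains (left) and transcription factors (right), red for TCDD and blue for Cl-BBQ, filled where the adjusted p was under 0.05. Il12rb2, at 4.47 and 4.81, is off the scale and left out, and no receptor chain is filled on the negative side.

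Other secreted cytokine genes were mostly dim: of 37 listed 13 were tested. Tgfb3 was the one called, where 6.71% of all tested genes were called with TCDD and 11.3% with Cl-BBQ. Leaving out single arrays gave 1 to 2 called with TCDD, Csf1 being added without TCDD replicate 3 (limma, adjusted p = 0.039), and 1 with Cl-BBQ. Tgfb3, encoding transforming growth factor beta 3, rose by 1.15 ± 0.18 with TCDD and 1.28 ± 0.17 with Cl-BBQ (limma, adjusted p = 0.0011 and 1.4e-04), and it was called without any one of the 13 arrays as well. Chosen after their values were seen, Tgfb1 was at 0.24 ± 0.10 and -0.05 ± 0.10, neither called. Il17a was at -0.05 ± 0.21 and 0.23 ± 0.20, and Il5 and Il22 were below the floor on all arrays. The medians of the 13 were 0.01 and -0.01.

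Listed genes that flank the cytokine loci lay within 3 protein-coding genes of one, by the order of the GRCm38.p6 gene table. Of 16 listed, 11 were tested and Kif3a, a kinesin motor gene beside Il4, was the only one called, higher by 0.64 ± 0.14 with TCDD and 0.51 ± 0.14 with Cl-BBQ (limma, adjusted p = 0.013 and 0.023). The second of these calls was lost without vehicle replicate 2 or Cl-BBQ replicates 4 or 5 (limma, adjusted p up to 0.081). Over all tested genes 6.71% were called with TCDD and 11.3% with Cl-BBQ. Kif3a was thus higher with Cl-BBQ while Il4 was lower, and Rad50, on the far side of Il13, was at -0.26 ± 0.11 and -0.21 ± 0.11, not called. Beside Il10, Mapkapk2, a kinase gene, was at -0.30 ± 0.13 and -0.30 ± 0.12 without being called, and Il19 and Il20 were not tested, with group means below the floor. Lta and Ltb, which flank Tnf, were at -0.0019 ± 0.10 and -0.08 ± 0.14 with TCDD and -0.18 ± 0.10 and 0.25 ± 0.13 with Cl-BBQ, and Osm, the neighbour of Lif and a cytokine of the same family, was at 0.01 ± 0.12 and -0.22 ± 0.12. None of these was called, nor were Fcmr, Irf1, Mdm1, Bbs12 and Fgf2, while Il5, Il22 and Adad1 were below the floor.

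For each called cytokine gene the 5 tested genes with the most alike profile were found by the root mean square difference of log2 values over the 13 arrays, each gene set relative to its vehicle mean. Nearest to Il10 were Ppm1j (0.25), Ccr2 (0.25), Rtn4rl1 (0.26), Snx9 (0.27) and Cd96 (0.28), of which Ccr2 is a chemokine receptor of effector cells and Cd96 a receptor of T and natural killer cells. Nearest to Lif were 3110082I17Rik (0.19), Ccdc28b, Mpp1, Bora and Pitpnm2 (0.25), and nearest to Il4 were Cep72 (0.31), BC106179, Tox, Zfp808 and Ipo11 (0.33). Nearest to Il21 were Ube2l6 (0.14), Slc30a3, Efnb1, Zfp354c and Npw (0.15). Distances are not compared between the cytokine genes, since the size of a gene's change and its spread enter them.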

How the data were processed

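Expression was measured with biotin-labelled cRNA on 13 arrays, grouped by their source labels, which call them biological replicates. The authors deposited log2 values of 41345 probe sets per array, made with RMA, per the submitters' processing notes; no software, version or build is stated there. RMA equalizes the distribution between arrays, so a shift of all transcripts cannot be seen. Array medians lay between 4.27 and 4.33 and correlations between arrays between 0.943 and 0.976.

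The platform annotation named 23521 probe sets by 1 symbol, updated by gene identifier to the GRCm38.p6 table, 1814 carried several and 16010 were unnamed here. Genes above the median of all values on at least 4 arrays were tested in 1 limma fit of 3 group means (limma 3.58.1, R 4.3.3; 10 residual and 4.22 prior degrees of freedom), two-sided, with Benjamini-Hochberg adjustment over all 12710 genes and a threshold of 0.05. SE and 95% intervals are those of the fit. Exact permutation tests used scipy 1.17.1 and are unadjusted. The procedure was tested on simulated data.

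The 10 genes, the lists and the motifs were chosen with earlier results of these data known. All 10 are named; of each list up to 4 called genes with the smallest adjusted p per contrast with vehicle, the flanking genes and those said to be singled out later. GGAAA was added after the data were seen. Proteins of the genes were not analysed here. Arrays with the same replicate number did not deviate together: 12 correlations of deviations from group means, over all tested genes, lay between -0.06 and 0.08. Alternatives changed the filter, the arrays fitted, the block, the variance prior, array weights, the normalization, the probe sets and the arrays left out.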

Additional observations from a re-analysis of the deposited data

Results flagged for a closer look

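Among 30 groups of values (10 genes in 3 groups), 4 held an array set apart from the rest by Dixon's test at the 95% level, which chance gives for about 1 group in 20. Il10 on vehicle replicate 2 was at 5.57, below the next array at 5.97. Il21 on TCDD replicate 3 was at 9.24, below the next at 9.52. Il2 on Cl-BBQ replicate 1 was at 6.85, above the next at 6.23. Ebi3 on TCDD replicate 1 was at 3.94, below the next at 4.73. No array was set apart for more than 1 of these genes. Without the array named, the difference from vehicle was 1.61 with TCDD and 1.68 with Cl-BBQ for Il10, 0.47 with TCDD for Il21 (limma, adjusted p = 0.019), 0.68 with Cl-BBQ for Il2 (limma, adjusted p = 0.26) and -0.25 with TCDD for Ebi3 (limma, adjusted p = 0.56).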

How the results depend on the processing

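Il10 was called against vehicle under all 11 other limma settings and all 13 single-array omissions with each ligand, as was Lif with Cl-BBQ. Il4 kept its call with Cl-BBQ under all 11 settings and all omissions except that of vehicle replicate 2. The 2 calls with TCDD became 1, through loss of Il21, with no filter on dim genes (adjusted p = 0.083), with the replicate block (adjusted p = 0.11) and with arrays centred on their medians (adjusted p = 0.059), and ranged from 1 to 2 over single-array omissions. The replicate block changed no other call of these 10 genes. With Cl-BBQ 3 to 4 of them were called under other settings and 2 to 4 over omissions, Ifng being added with a variance trend (adjusted p = 0.045). Between the ligands no cytokine gene was called under any of the 11 settings or 13 omissions, while 4 (Il21, Il2, Il4 and Lif) had an unadjusted exact permutation p of 0.0159. The 3 genes called there over the whole table became 0 with no filter, with the compared groups alone and with the replicate block, 5 with a stricter filter, a variance trend, a second quantile normalization and averaged probe sets, and 7 with array weights, and ranged from 0 to 5 over omissions; the cause was not tested. Uncalled log2 differences near 0 changed sign: with array weights Tnf was at 0.0268 and Il4 at -0.0088 with TCDD, and Il13 at 0.06 with Cl-BBQ. Over omissions Tnf ranged from -0.17 to 0.10, Il2 from -0.20 to 0.57 and Il4 from -0.14 to 0.20 with TCDD. With Cl-BBQ Tnf ranged from -0.22 to 0.0714, Il21 from -0.10 to 0.0011, Il13 from -0.10 to 0.10 and Il24 from -0.031 to 0.10. Between the ligands Il10 ranged from -0.0201 to 0.14 and Tnf from -0.19 to 0.10. Il13, Il24 and Ebi3 lie near the floor, where the array resolves small changes poorly.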
